A study of Mus musculus with 16 samples.

Results

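The skeletal muscle genes described here are 35 genes of the contractile apparatus, calcium cycling and energy supply of the muscle fibre, taken by name from the 47311 mouse genes to which deposited transcripts could be matched. They were followed through bulk RNA of 16 mammary tumours, of which 1 control tumour, IgG2a replicate 3, held muscle transcripts at a level far above the other 15. The tumours were grafts of E0771-luciferase, a line of mammary cancer cells syngeneic to the host that carries a luciferase reporter, and 250000 cells in 25% matrigel had been placed in the fourth mammary gland of female C57BL/6J mice. Every mouse had eaten a high-fat diet, with 60% of energy from fat, between 8 and 26 weeks of age. In one group 8 mice received an antibody against PD-1, the inhibitory receptor of T cells, and in the other 8 mice received an IgG2a isotype control antibody. Both antibodies were given intraperitoneally at 200 ug, beginning 3 days after the cells and repeated every 3 days up to day 21. There was no group without antibody and none on a lean diet, and each tumour carries its own animal number. The design asks what blockade of PD-1 changes in tumours of obese mice. The muscle genes enter it because 1 control tumour carries them.

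A skeletal muscle fibre shortens when myosin heavy chains of the thick filament pull on actin of the thin filament. Calcium released from the sarcoplasmic reticulum binds troponin C, and troponin I and T then move tropomyosin off the sites at which myosin attaches. Many of these proteins come in a fast and a slow form from separate genes. Fast glycolytic fibres of the mouse carry the heavy chain of Myh4, fast fibres of intermediate metabolism those of Myh1 and Myh2, and slow oxidative fibres that of Myh7, which the heart ventricle also uses. By these roles 14 members were classed as fast, 7 as slow and 14 as shared by fibre types.

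The depth was 59036535 to 82591064 estimated reads per tumour, with IgG2a replicate 3 the deepest. The epithelial keratin gene Krt8 was present in all 16 tumours, at 46.6 to 102 CPM, which are counts scaled to the total of the library. Its partner Krt18 (0.0292 to 98.3 CPM, median 2.24) and the epithelial adhesion gene Epcam (0.250 to 45.8 CPM, median 1.93) were low in most. IgG2a replicate 7 stood apart by adipocyte, erythroid and endothelial genes, and anti-PD-1 replicate 6 by few detected transcripts.

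The regulatory stretches of 4 members are shown because all 35 members were highest in the same tumour and these genes stand for the thin filament (Acta1), energy supply (Ckm), the fast heavy chain (Myh4) and the slow heavy chain (Myh7). They are the 250 bases before the RefSeq start (GRCm38.p6), 5′ to 3′ on the gene's strand, at chr8:123894776-123895025 on the minus strand for Acta1, chr7:19410844-19411093 on the plus strand for Ckm, chr11:67237562-67237811 on the plus strand for Myh4 and chr14:54994627-54994876 on the minus strand for Myh7. Capitals mark the E-boxes CAGCTG and CACCTG, the core bound by MyoD family factors, the MEF2 site and the CArG box bound by serum response factor. They also mark the letters TATAAA at any position in the window, whether or not it is that of a core promoter.
Acta1: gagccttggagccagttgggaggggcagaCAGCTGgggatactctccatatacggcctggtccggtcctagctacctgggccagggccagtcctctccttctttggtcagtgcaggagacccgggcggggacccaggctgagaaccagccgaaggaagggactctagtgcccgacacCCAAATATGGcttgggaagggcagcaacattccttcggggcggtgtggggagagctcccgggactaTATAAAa
Ckm: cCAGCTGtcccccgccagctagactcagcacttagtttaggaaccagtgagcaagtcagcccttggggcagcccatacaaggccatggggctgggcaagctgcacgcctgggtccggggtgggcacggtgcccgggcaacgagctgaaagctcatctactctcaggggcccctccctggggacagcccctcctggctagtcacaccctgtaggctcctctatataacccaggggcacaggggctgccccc
Myh4: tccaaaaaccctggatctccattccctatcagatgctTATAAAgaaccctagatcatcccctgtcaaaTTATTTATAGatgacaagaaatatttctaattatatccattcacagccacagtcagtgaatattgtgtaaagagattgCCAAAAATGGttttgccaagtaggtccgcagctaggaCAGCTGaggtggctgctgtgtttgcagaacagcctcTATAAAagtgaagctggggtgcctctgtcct
Myh7: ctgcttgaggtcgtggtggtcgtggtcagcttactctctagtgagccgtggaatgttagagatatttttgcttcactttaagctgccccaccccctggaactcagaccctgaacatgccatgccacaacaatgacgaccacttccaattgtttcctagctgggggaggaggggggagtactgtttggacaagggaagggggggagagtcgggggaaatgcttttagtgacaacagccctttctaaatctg

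Positions are counted from the RefSeq start, while the GENCODE gene begins elsewhere for Acta1, Ckm and Myh4. Acta1 held a CAGCTG at 221 to 216 bases before its start, a CArG box at 73 to 64 and a TATAAA at 7 to 2. Ckm held a CAGCTG at 249 to 244 bases before its start. Myh4 held a MEF2 site at 182 to 173, a CArG box at 104 to 95, a CAGCTG at 67 to 62 and a TATAAA at 213 to 208 and at 31 to 26. The window of Myh7 held none of the marked motifs, which says only that these letters are not in this window. The RefSeq table held 36 promoters for 29 of the 35 members, all but Tnnt3, Tnni2, Neb, Actn3, Tcap and Myoz1. Both strands were searched for every motif but TATAAA, which was searched on the gene's strand. CAGCTG stood in 47.2% of the members' promoters and in 13% of all 32851 promoters of that length. The MEF2 site stood in 13.9% and 2.92%, the CArG box in 13.9% and 1.47%, CACCTG in 25% and 17.2%, and TATAAA in 11.1% and 7.59%. The general E-box CANNTG, which includes both E-boxes above, stood in 83.3% and 66.2%. These matches are descriptions of sequence and not measured sites of binding.

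All 35 members were highest in IgG2a replicate 3. In TPM, the deposited unit that scales reads to transcript length and library total, they summed to 47860 in that tumour, against 376 in anti-PD-1 replicate 5, 223 in anti-PD-1 replicate 4, and a median of 73.1 over the other 15. The sum in IgG2a replicate 3 was thus 127 times that of the next tumour. Its members held 4222550 estimated reads, or 5.12% of its reads (95% Wilson interval 5.12 to 5.13%, counting error only), while the other 15 held 0.00419 to 0.0335%. In bulk RNA fewer cells of a type and less RNA per cell cannot be told apart. IgG2a replicate 3 is 1 library, so its levels have no replicate and no test.

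**Figure D1:**
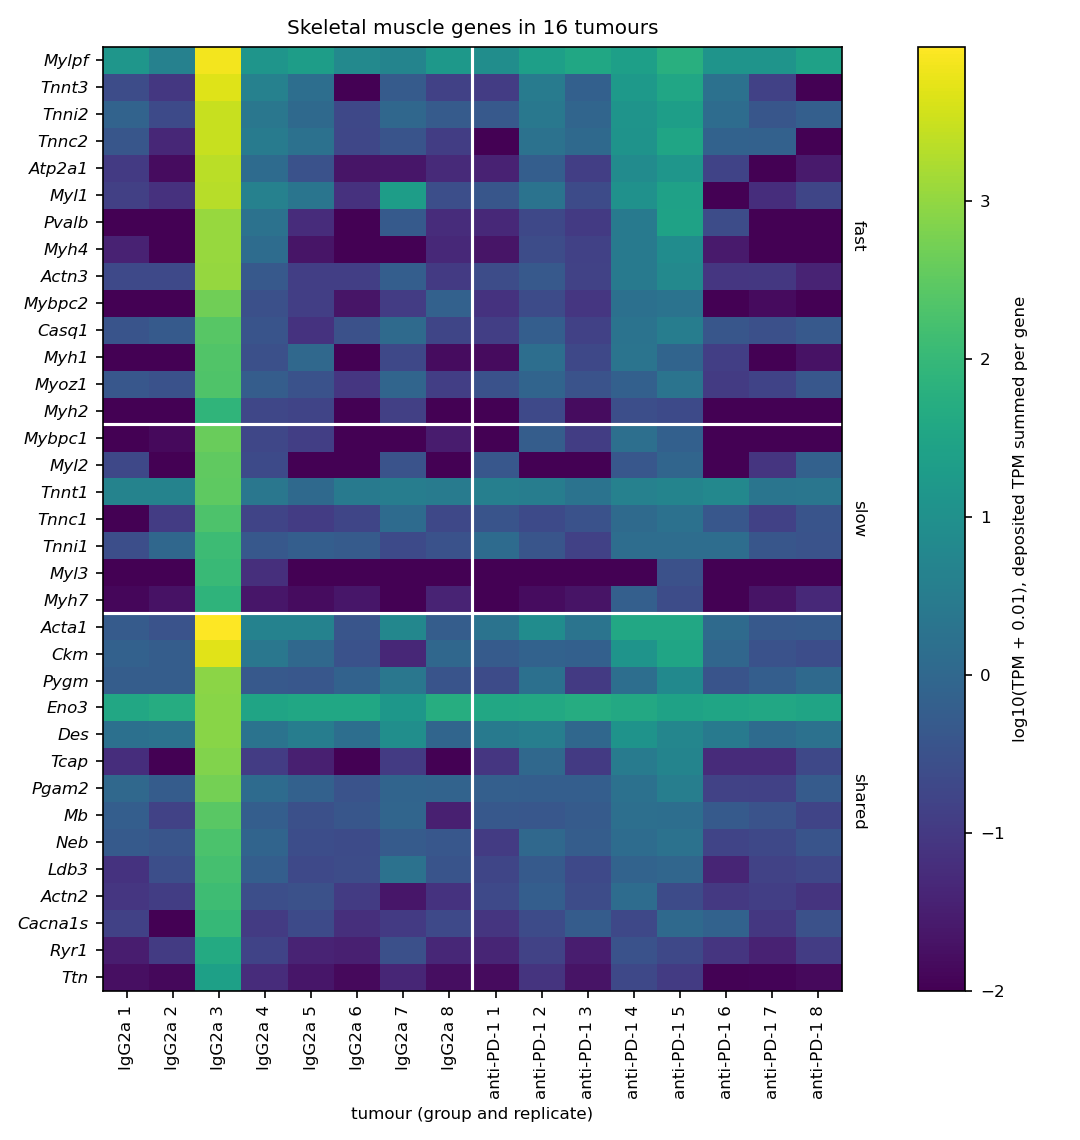
Heat map of the 35 muscle genes (rows, ordered by level within the fast, slow and shared classes) in the 16 tumours (columns), coloured by log10(TPM + 0.01). IgG2a replicate 3 is the highest column in all 35 rows, and anti-PD-1 replicates 4 and 5 are the next palest for most. Eno3 and Mylpf are among the members with reads in every tumour.

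The ratio of a member's TPM in IgG2a replicate 3 to its highest value elsewhere ran from 15.8 for Eno3 to 386 for Myl3, with a median of 125. By class the median ratio was 128 for fast, 122 for slow and 127 for shared members. The next highest tumour was anti-PD-1 replicate 5 for 22 members and anti-PD-1 replicate 4 for 10. The other 3 were Tnnt1, next highest in anti-PD-1 replicate 6, Ldb3, in IgG2a replicate 7, and Eno3, in IgG2a replicate 8. Among 7757 protein-coding genes with at least 20 CPM in IgG2a replicate 3, 150 (1.93%) were 10-fold or more above all other tumours, and these held all 35 members.

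Thin and thick filament genes led. Acta1, skeletal alpha-actin (ENSMUSG00000031972, chr8:123891769-123894751, GRCm38), stood at 9378 TPM in IgG2a replicate 3. In the other IgG2a tumours Acta1 ran from 0.335 to 5.75 TPM (median 0.566, n = 7), and under anti-PD-1 from 0.45 to 38.8 TPM (median 1.93, n = 8). The 2 highest of those 15 values, 38.8 and 38.1 TPM, belonged to anti-PD-1 replicates 4 and 5, and the groups overlapped. Its single annotated transcript took 911753 reads in IgG2a replicate 3 and 22 to 2677 in each of the others.

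The regulatory light chain gene Mylpf stood second at 7470 TPM. Mylpf was detected in every tumour, at 4.20 to 21.6 TPM in the other 7 IgG2a tumours (median 12.8) and 8.49 to 59.9 TPM under anti-PD-1 (median 23.9). The transcript Mylpf-206 carried 40.3% of its reads pooled over those 15 tumours and 17.6% in IgG2a replicate 3. The pooled share did not hold in each tumour, since Mylpf-206 had 0 of 356 Mylpf reads in anti-PD-1 replicate 4 and 147 of 660 in anti-PD-1 replicate 5. Myl1, an essential light chain of fast fibres, reached 2193 TPM.

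Troponin genes of the fast form were close behind, with Tnnt3 at 4693 TPM, Tnni2 at 3010 and Tnnc2 at 2960. Tnnt3, which anchors the troponin complex to tropomyosin, ran from 0 to 4.12 TPM in the other IgG2a tumours (median 0.230) and from 0 to 34.8 under anti-PD-1 (median 1.19). Tnni2, the inhibitory subunit, ran from 0.184 to 2.38 TPM (median 0.796) and from 0.388 to 22.9 (median 1.09). In each of these fast troponin genes the highest of the 15 was anti-PD-1 replicate 5, and the ranges of the groups overlapped.

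The slow troponin genes behaved unevenly outside IgG2a replicate 3. Tnnt1 stood at 315 TPM in it and was detected in all other tumours at 1.08 to 6.03 TPM. Retained-intron transcripts carried 45.5% of the Tnnt1 reads pooled over those 15 tumours and 1.12% in IgG2a replicate 3. Tnni1 reached 125 TPM against at most 1.39 TPM elsewhere, and Tnnc1, the calcium sensor shared by slow and cardiac muscle, 197 against at most 1.71.

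Heavy chain genes were lower per length than actin or the fast light chain genes Mylpf and Myl1. The slow light chain genes Myl2, at 325 TPM, and Myl3, at 113, were below Myh4. Myh4 (ENSMUSG00000057003, chr11:67238029-67260446) stood at 1126 TPM, Myh1 (chr11:67200052-67224575) at 228, Myh2 (chr11:67171027-67197517) at 79.4 and Myh7 (chr14:54970684-54994626) at 75.5. The 3 fast genes lie side by side on chromosome 11 and resemble each other closely. Their first 60 coding bases (GENCODE vM21, 5′ to 3′) are shown because reads from such stretches cannot be assigned with certainty, with capitals at the bases that differ from Myh4.
Myh4: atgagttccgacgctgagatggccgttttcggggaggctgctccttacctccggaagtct
Myh1: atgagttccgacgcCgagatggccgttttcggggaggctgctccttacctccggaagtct
Myh2: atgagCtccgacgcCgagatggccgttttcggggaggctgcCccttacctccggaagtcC

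Over the whole coding sequence Myh4 matched Myh1 at 90.25% and Myh2 at 88.22% of aligned bases, with identical runs of up to 161 and 146 bases. Myh1 and Myh2 matched at 91.12%, with a run of up to 268 bases. Myh4 and Myh7 matched at 78.67%, with a run of up to 56 bases.

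Fast members summed to 27132 TPM in IgG2a replicate 3, slow members to 1555 TPM and shared members to 19174 TPM. Of the fast and slow members together, the fast ones took 94.6% by TPM in that tumour. Among the other 15 tumours this share ran from 49.7% in IgG2a replicate 2 to 96.0% in anti-PD-1 replicate 5. There it could rest largely on Mylpf, which gave 36.8 of 40.9 fast TPM in anti-PD-1 replicate 3. Over the troponin and heavy chain genes alone the share ran from 5.44% in IgG2a replicate 2 to 92.3% in anti-PD-1 replicate 5. By that count it was 55.5% in anti-PD-1 replicate 3 and 18.2% in anti-PD-1 replicate 8. Within paired families of IgG2a replicate 3 the fast gene exceeded the slow gene 14.9-fold for troponin T, 24.1-fold for troponin I and 15-fold for troponin C. It did so 19.3-fold for the essential light chain and 23.0-fold for the regulatory light chain. Myosin binding protein C, which links thick filaments and tunes their cross-bridges, was the exception. Mybpc2, classed here as fast, stood at 465 TPM and Mybpc1, classed here as slow, at 403 TPM, a ratio of 1.15. The 403 TPM of Mybpc1 are part of the slow sum of 1555 TPM. Whether they came from slow fibres was not tested. These are ratios within 1 library and have no replicate error.

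**Figure D2:**
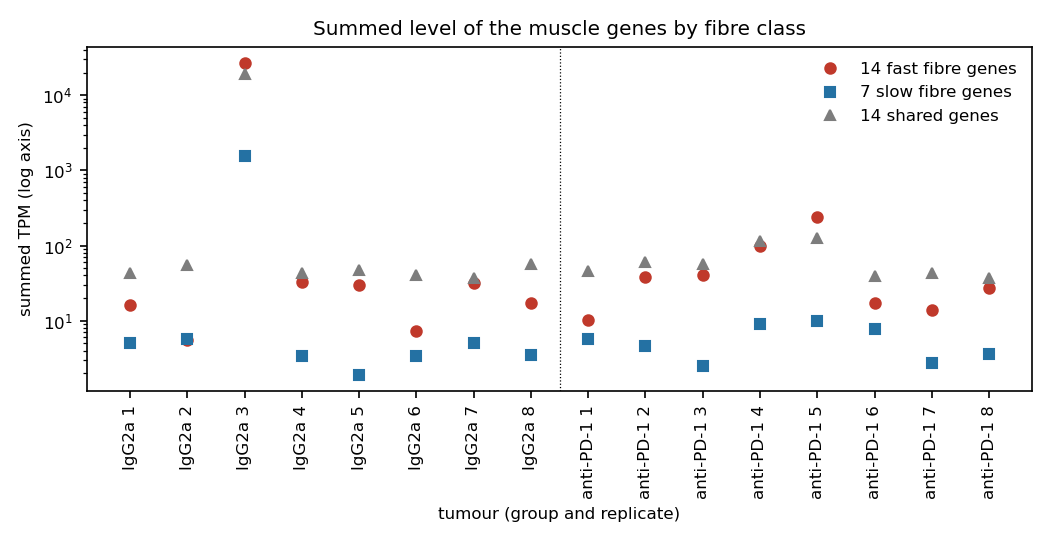
Summed TPM (log axis) of the 14 fast, 7 slow and 14 shared muscle genes in each tumour. In IgG2a replicate 3 the sums were 27132, 1555 and 19174 TPM, and the next highest fast sum was 240.7 TPM in anti-PD-1 replicate 5.

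By reads of the 4 heavy chain genes in IgG2a replicate 3, Myh4 took 74.6% (95% Wilson interval 74.5 to 74.7%), Myh1 15% (15 to 15.1%), Myh2 5.28% (5.22 to 5.33%) and Myh7 5.13% (5.08 to 5.18%). These intervals cover counting error only and leave out the uncertainty of dividing reads between similar genes. Of the other tumours, 6 had at least 100 heavy chain reads. Myh4 also led in anti-PD-1 replicate 5, at 86.4% (85.2 to 87.6%) of 3216 reads, in IgG2a replicate 4, at 73.2% (69.2 to 76.7%) of 536 reads, and in anti-PD-1 replicate 4, at 51.1% (48.7 to 53.4%) of 1729 reads. Myh1 led in the other 3, at 76.5% (73.1 to 79.7%) of 619 reads in anti-PD-1 replicate 2, 85.4% (81.7 to 88.5%) of 419 reads in IgG2a replicate 5 and 54.8% (45.7 to 63.6%) of 115 reads in anti-PD-1 replicate 3. The slow Myh7 took its largest share, 11.2% (9.82 to 12.8%), in anti-PD-1 replicate 4. Each of these shares comes from 1 tumour, so whether they differ was not tested.

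**Figure D3:**
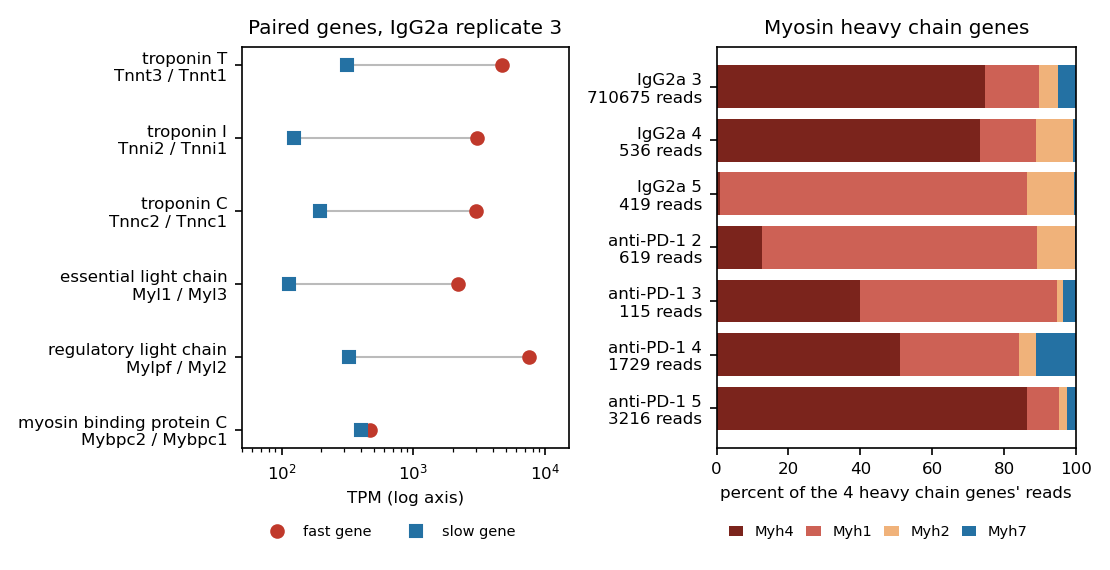
Left, TPM (log axis) of the fast and slow gene of 6 paired families in IgG2a replicate 3, with ratios of 14.9 to 24.1 in 5 families and 1.15 for myosin binding protein C. Right, percent of the reads of Myh4, Myh1, Myh2 and Myh7 in the 7 tumours with at least 100 such reads (number under each name), with Myh4 leading in IgG2a replicates 3 and 4 and anti-PD-1 replicates 4 and 5.

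The sarcomere's frame was present in IgG2a replicate 3 as well. Ttn, the giant spring from Z disc to M line, stood at 24.4 TPM, a value that its great length lowers, with 97649 reads. Neb, which runs along the thin filament, stood at 194 TPM and Des, the intermediate filament between Z discs, at 794. Of the Z disc genes, Actn3, the alpha-actinin of fast fibres, reached 1049 TPM, Tcap, the cap of titin, 697, Myoz1 211, Ldb3 163 and Actn2 131. Des was detected in all tumours, and after IgG2a replicate 3 its highest values were 11.5 TPM in anti-PD-1 replicate 4 and 9.08 in IgG2a replicate 7. Des also marks smooth muscle and pericytes, and of 11 other genes of those cells 8 were highest in IgG2a replicate 7. Actg2, a smooth muscle actin, was highest in anti-PD-1 replicate 4, at 4.91 CPM. Myh11, the smooth muscle heavy chain, had 82.4 CPM in IgG2a replicate 7 and 3.65 in IgG2a replicate 3.

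Calcium-handling members followed the same order. Atp2a1, the fast calcium pump of the sarcoplasmic reticulum, stood at 2252 TPM in IgG2a replicate 3, and Pvalb, the calcium buffer of fast fibres, at 1133. Casq1, which stores calcium in the reticulum, stood at 263 TPM, Cacna1s, the voltage sensor, at 103, and Ryr1, the release channel, at 44.1. Atp2a1 ran from 0.00562 to 1.23 TPM in the other IgG2a tumours (median 0.0421) and from 0 to 14 under anti-PD-1 (median 0.134). Pvalb was at 28.3 TPM in anti-PD-1 replicate 5, at 2.92 in anti-PD-1 replicate 4 and at most 1.76 in the others. The transcript Ryr1-202 (15358 bases) carried 88.4% of the Ryr1 reads of IgG2a replicate 3 and 0.00127% of the 15 others pooled, where Ryr1-201 (15352 bases) carried 97.8%. These transcripts differ little in length, and how well their reads could be told apart was not measured.

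Energy and oxygen members were led by Ckm, muscle creatine kinase (ENSMUSG00000030399, chr7:19404776-19422841), at 5161 TPM. Ckm ran from 0.0360 to 2.36 TPM in the other IgG2a tumours (median 0.698) and from 0.249 to 33.3 TPM under anti-PD-1 (median 0.698), so the medians of the groups were alike and the high end came from anti-PD-1 replicates 5 and 4. Pygm, muscle glycogen phosphorylase, stood at 849 TPM in IgG2a replicate 3, Eno3, muscle enolase, at 820, Pgam2, muscle phosphoglycerate mutase, at 539, and Mb, the oxygen-binding myoglobin, at 276. Eno3 was present in all tumours, at 14.8 to 51.7 TPM in the other IgG2a tumours (median 37.0) and 27.4 to 50.5 TPM under anti-PD-1 (median 38.7). It alone gave 766 to 3343 reads in each of those 15.

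Outside IgG2a replicate 3, 30 of the 35 members had a median below 1 TPM. Myl3, the slow and ventricular essential light chain, had 0 reads in 13 of the 15, Myh2 in 8, and Myl2 and Mybpc1 in 7. A count of 0 in a tumour allows up to 3 reads. Taking each member as a percent of its level in IgG2a replicate 3, anti-PD-1 replicate 5 had a median of 0.684% (0.166 to 3.34%) and anti-PD-1 replicate 4 of 0.414% (0 to 5.04%), with Eno3 highest in both. Anti-PD-1 replicate 2 had a median of 0.144%, IgG2a replicate 4 of 0.119%, IgG2a replicate 7 of 0.0918% and IgG2a replicate 5 of 0.0542%. In anti-PD-1 replicate 5, Pvalb stood at 2.50% and Myh1 at 0.363%, so its members were not scaled evenly from IgG2a replicate 3. IgG2a replicate 7 differed again, with Myl1 at 0.962% and Ckm at 0.000697%. There Myl1 had 21.1 TPM, the transcript Myl1-202 carried 380 of its reads, and Myh4 had 0.

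A fast over slow ratio needed at least 10 reads of both genes, which not all of the other 15 tumours had. Troponin T gave a ratio in 9 of them, at 0.0504 to 7.18, all below the 14.9 of IgG2a replicate 3, and troponin I in 12, at 0.384 to 16.5, all below its 24.1. Pooled over the 15 tumours, 45.5% of the Tnnt1 reads were from retained-intron transcripts, but this share did not hold in each tumour. In anti-PD-1 replicate 4 the retained-intron transcripts Tnnt1-211 and Tnnt1-212 held 32.6 and 0 of 140 Tnnt1 reads. In anti-PD-1 replicate 5 the fast over slow ratio was 7.18 for troponin T, 16.5 for troponin I, 18.6 for troponin C and 2.81 for myosin binding protein C. Its ratios for the essential and the regulatory light chain, 89.4 and 69.9, rested on 12 reads of Myl3 and 21 of Myl2. In anti-PD-1 replicate 4 the ratios were 4.04, 9.17 and 10.2 for troponin T, I and C and 1.07 for myosin binding protein C.

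Other muscle genes accompanied the members in IgG2a replicate 3. All of 28 other sarcomere and Z disc genes were highest there, and of the 27 with at least 20 CPM in it 21 were 10-fold or more above every other tumour. At the same minimum, 12 of 21 genes of excitation and calcium handling, 8 of 11 other fast fibre genes, 6 of 9 other slow fibre genes, 7 of 22 genes of muscle energy metabolism and 2 of 6 muscle regulators and satellite cell genes, Myf6 and Vgll2, were 10-fold or more above. Some genes stand in more than 1 of these lists. Myf6, the myogenic factor of mature fibres, had 51.4 CPM, Myod1 6.25 and Myog 4.73. Pax7, which marks satellite cells, had 0.449 CPM and Myf5 0.182. The embryonic heavy chain Myh3 had 2.28 CPM in IgG2a replicate 3 and 2.58 in anti-PD-1 replicate 4, and the perinatal Myh8 1.13 and 1.08.

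From outside the members, the genes with the largest ratio to the next tumour included Igfn1, Ano5, Rpl3l, Kcnc4, Tmod4, Myoz2, Mypn, Myot, Vgll2, Hfe2, Myf6, Lmod3, Cmya5 and Ankrd2, with ratios in CPM from 658 down to 202. Several are known parts of the fibre, among them Tmod4 and Lmod3, which cap and nucleate thin filaments, and Myot and Mypn of the Z disc. Of the 115 genes beyond the members that were 10-fold or more above all others, 49 were in the other muscle lists, 65 were in none of the lists, and 1 was in a list of non-muscle cells.

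Markers of other tissues gave the following levels beside these. The 10 cardiac genes summed to 25.3 CPM in IgG2a replicate 3 against 14.4 to 63.4 in the others, with Myl7 and Ryr2 at 0 reads in it. The 12 adipocyte genes summed to 2839 CPM, between 18398 in IgG2a replicate 7 and 168 to 594 in the other 14. Of that sum Car3, a carbonic anhydrase that fat and muscle both express, gave 2085 CPM, while Adipoq gave 17.9. The 10 genes of tendon and connective tissue summed to 401 CPM in IgG2a replicate 3, 411 in anti-PD-1 replicate 5, 337 in anti-PD-1 replicate 4 and 90.5 to 585 over the 15, and 2 of them, Tnmd and Thbs4, were highest by 10-fold or more in IgG2a replicate 3. Tnmd had 0 reads in the other 15. Tnc, a matrix gene of tumour stroma as well, gave 374 CPM of the sum in anti-PD-1 replicate 5 and 143 in IgG2a replicate 3. Skin genes summed to 13.0 CPM against 5.65 to 114. The part of these tissues in the muscle values was not tested.

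The comparison of anti-PD-1 with IgG2a over all 16 tumours called none of the members. Of the 35, 26 passed the filter on low counts, and the same 26 passed it without IgG2a replicate 3. Myh2, Myh4, Myh7, Myl2, Myl3, Tnnc1, Mybpc1, Tcap and Pvalb did not. The edgeR quasi-likelihood test with Benjamini-Hochberg adjustment called 0 of the 26 members and 0% of all 16154 genes tested. All 26 estimates were lower under anti-PD-1, whereas 43.1% of all genes had a higher one, with a median log2 fold change of -5.99 against -0.05 over all genes. In this fit all 26 had an unadjusted p under 0.05, against 7.9% of all genes in that direction. That count was 0 of 26 under limma-voom, against 3.14% of all genes, and 0 of 26 with animal number range in the edgeR model, against 5.56%. IgG2a replicate 3 was known beforehand to be rich in these genes. The lower estimates with it among the controls therefore test nothing about anti-PD-1. For Acta1 the estimate was -6.98 ± 2.44 (SE), for Ckm -6.84 ± 2.43, for Myh1 -5.98 ± 2.28 and for Eno3 -1.89 ± 0.78, each with an adjusted p of 0.434 in edgeR.

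Without IgG2a replicate 3 the direction turned. Of 26 members tested, 25 had a higher estimate under anti-PD-1 and 1, Ldb3, a lower one, while 43% of all genes had a higher one. The median log2 fold change was 1.09 against -0.06 over all genes. Again 0 members and 0% of the 16326 genes tested were called by edgeR. An unadjusted p under 0.05 with a higher level was found for 7 members (Acta1, Tnnt3, Tnni2, Actn2, Actn3, Cacna1s and Ckm) and for 6.58% of all genes. Acta1 had an estimate of 2.31 ± 1.07 (SE), Ckm 2.59 ± 1.11, Tnnt3 3.14 ± 1.46, Atp2a1 3.05 ± 1.59, Myh1 1.36 ± 1.51, Des 0.63 ± 0.57 and Eno3 0.22 ± 0.22. Adjusted p-values of the members in edgeR were 0.310 or more. In TPM, the ranges of the groups overlapped for all 35 members. The share of all genes with overlapping ranges was not counted, so this says nothing particular to the members.

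Leaving out anti-PD-1 replicates 4 and 5 as well, a choice made after seeing the values, moved the estimates to both sides of 0. Of 25 members tested by edgeR, 12 were higher and 13 lower, with 42.8% of all genes higher, the median log2 fold change was -0.02, and 0 members and 0% of 16380 genes were called. No member then had an unadjusted p under 0.05 in either direction, against 6.5% of all genes higher and 7.82% lower. Acta1 had an estimate of 0.11 ± 0.85 (SE), Ckm -0.38 ± 0.71, Tnnt3 0.45 ± 1.25 and Tnnc2 -0.07 ± 1.17. Other members moved less when those 2 tumours were left out, with Cacna1s going from 2.28 ± 0.75 to 1.64 ± 0.76, Actn2 from 1.51 to 0.87, Tnnt1 from 0.67 to 0.56 and Eno3 from 0.22 to 0.28.

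**Figure D4:**
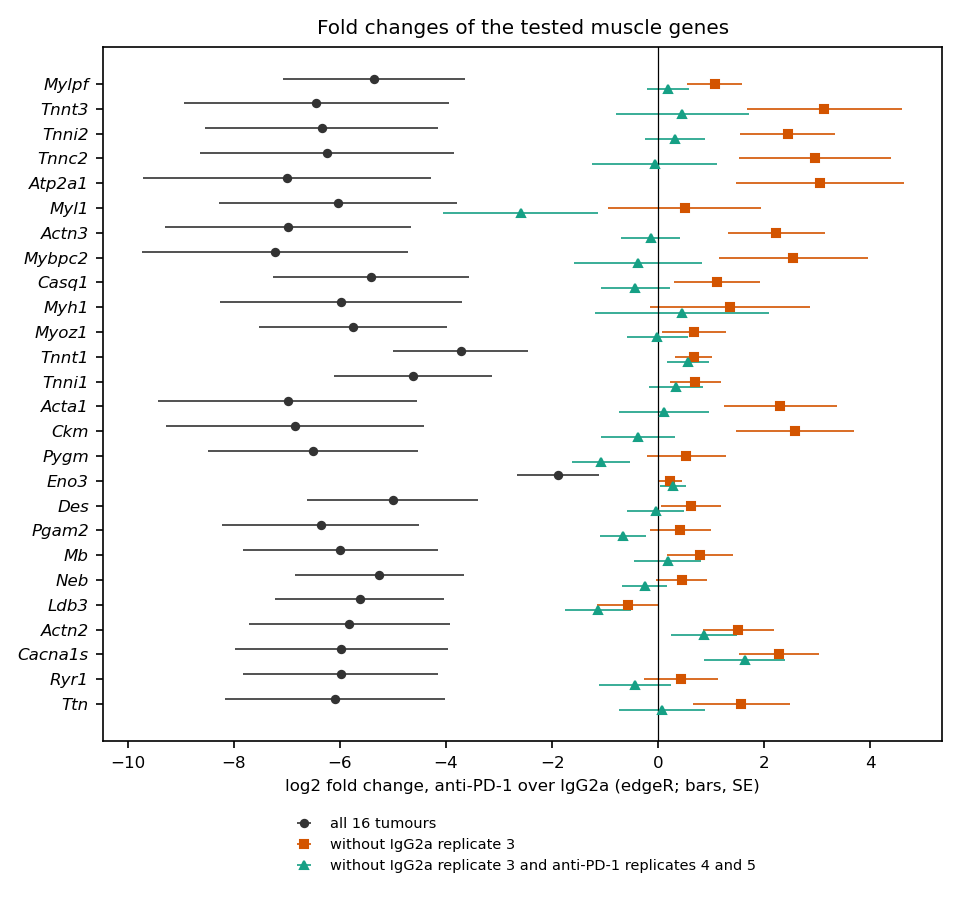
Log2 fold change (anti-PD-1 over IgG2a, edgeR, bars SE) of the 26 tested muscle genes with all 16 tumours, without IgG2a replicate 3, and also without anti-PD-1 replicates 4 and 5, where Atp2a1 did not pass the filter. The 26 estimates are below 0 with all tumours, 25 are above 0 without IgG2a replicate 3, and 12 of 25 are above 0 with the 3 tumours left out.

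DESeq2, which tests genes of low count too, gave 1 call among the members, Tcap, when IgG2a replicate 3 was left out. Tcap ran from 0 to 0.107 TPM in the other IgG2a tumours (median 0.0241) and from 0.0448 to 4.96 under anti-PD-1 (median 0.142), with overlapping ranges. Its highest values were 4.96, 3.07 and 1.02 TPM in anti-PD-1 replicates 5, 4 and 2. The log2 fold change of Tcap was 4.90 ± 1.11 (SE), with an adjusted p of 0.0215 in DESeq2, where 0.0433% of 27707 genes were called. With anti-PD-1 replicates 4 and 5 also left out, Tcap had 2.65 ± 1.11 and an adjusted p of 0.373 in DESeq2, which then called 0.0478% of genes and 0 members. With all 16 tumours DESeq2, which then replaced outlying counts of all 35 members, called 0.0143% of genes and 0 members, and 0.012% when outlying counts were kept, which left the members without a p. With no filter, edgeR without IgG2a replicate 3 gave 4.82 ± 1.23 and an adjusted p of 0.302.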

How the data were processed

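RNA of 16 tumours (8 anti-PD-1, 8 IgG2a, each from its own animal) was measured. Libraries of poly(A) RNA were made with a kit that keeps no strand, per the labels' protocols, so 19 of the 35 members, which overlap a gene on the opposite strand, may include its reads. Per the file headers, each deposited table gives TPM and estimated counts for every transcript. GRCm38, edgeR and limma are named in the submitters' processing notes, while the quantifier is not given in the sources used here. Of the transcripts, 25.4 to 38.6% had deposited counts that were not whole.

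Transcripts were matched to GENCODE vM21 (114200 of 115088, and 0.167 to 0.217% of reads unmatched). The authors' TPM and estimated counts were summed per gene, and counts were rounded. Genes passing filterByExpr (minimum count 10, total 15) were scaled by TMM and tested with the robust quasi-likelihood test of edgeR 4.0.16 in R 4.3.3, checked on simulated data, with Benjamini-Hochberg adjustment and a threshold of 0.05. Alternatives used DESeq2 1.42.0, limma 3.58.1, other scalings, filters and sets of tumours. No 2 tumours of the same group agreed within sampling noise (chi-square per gene 29.2 or more). Named genes were all 35 members and the 15 outside genes of largest ratio to the next tumour among those with 20 CPM, of which 1 is not reported here. Of 18 members set for fold changes, Myh4, Myh2, Myh7 and Tnnc1 did not pass the filter. The members and lists were chosen with earlier results of these data known. Promoters are from RefSeq.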

Additional observations from a re-analysis of the deposited data

Results flagged for a closer look

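IgG2a replicate 3 was set apart in this description as the muscle-rich tumour, so the following values describe it and test nothing. Among the 8 IgG2a tumours it was far above the others for all 35 members. The gap from it to the next tumour, divided by the range of the group, was 0.954 for Eno3, 0.989 for Tnnt1, and 0.990 for Myl1, Des and Ldb3. It was 0.994 for Tnni1, Tnnc1 and Ryr1, 0.995 for Myh1, 0.996 for Casq1 and Myoz1, 0.997 for Neb and Mb, and 0.998 for Myh2, Mylpf, Mybpc2, Ttn, Actn2, Cacna1s, Pvalb, Pgam2 and Pygm. It was 0.999 for Myh4, Myl2, Acta1, Tnnt3, Tnni2, Tnnc2 and Atp2a1, and rounded to 1.00 for Myh7, Myl3, Mybpc1, Actn3, Tcap and Ckm. The limit for 8 tumours is 0.53. IgG2a replicate 3 passed it for all 35 members and for 2.02% of the 16154 genes tested with edgeR.

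Within the 8 anti-PD-1 tumours, replicate 5 lay apart for 10 of the 35 members, of which 6 are among the 14 fast fibre genes. It lay apart in the same way for 4.17% of the 16154 genes tested with edgeR. The share of the range was 1 for Myl3, whose other 7 tumours had 0 TPM, 0.897 for Pvalb, 0.783 for Pygm, 0.645 for Myh4, 0.633 for Tnnc2, 0.629 for Ckm, 0.610 for Myl1, 0.593 for Myoz1, 0.577 for Actn3 and 0.533 for Pgam2.

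Replicate 4 lay apart for 4 of the 35 members and for 0.433% of those genes, at 0.627 for Myh7, 0.580 for Des, 0.566 for Actn2 and 0.549 for Mybpc1, of which 2 are among the 7 slow fibre genes. Chance passes this limit in about 1 of 20 groups of normally distributed values, and TPM values need not be distributed so. Of all genes tested, IgG2a replicate 7 alone passed it for 18.6%. The members also share tumours, so these are not separate findings.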

How the results depend on the processing

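No paired analysis was possible because the labels give each tumour its own animal number and no number shared between the groups. The count of members called by edgeR stayed at 0 under the other scalings, filters and moderation, with animal number range in the model, and without each tumour in turn, as it did under limma. At an unadjusted p under 0.05, 26 of 26 members tested were lower with all 16 tumours in edgeR, beside 1276 of all 16154 genes. With limma-voom 0 of 26 were lower, beside 507 of those genes, and with quality weights 0, beside 1861. With limma on either TPM scale 0 of 26 were lower, beside 547 and 557 genes. With animal number range in the edgeR model 0 of 26 were lower, beside 898. Quality weights gave 1 member higher, beside 1560 genes. DESeq2 gave 0 lower and 3 higher of 35, beside 994 and 765 of 27933 genes. DESeq2 replaced outlying counts of all 35 members and called 4 genes, none of them members, and with no replacement it called 3 and gave the members no p. Alternatives chosen after seeing the data were DESeq2 without IgG2a replicate 3, with 12 genes called and 1 member, Tcap, DESeq2 also without anti-PD-1 replicates 4 and 5, with 13 genes and 0 members, and edgeR with no filter and limma-voom, both without IgG2a replicate 3, with 0 genes. The summed level of IgG2a replicate 3 was 153 times that of the next tumour in CPM, against 127 in TPM. Its fast share was 93.6% by reads and 94.4% in the 4 paired families (the troponins and heavy chains), against 94.6%.

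The log2 fold changes of 14 members had the opposite sign in at least 1 of the settings below. Leaving out each tumour in turn gave these ranges, in which every positive end came without IgG2a replicate 3 and every other value was negative: Acta1 -7.57 to 2.31, Ckm -8.22 to 2.59, Myh1 -6.56 to 1.36, Tnnt3 -7.61 to 3.14, Tnnt1 -3.98 to 0.67, Tnnc2 -7.66 to 2.96, Mylpf -5.84 to 1.07, Atp2a1 -8.20 to 3.05, Mb -6.23 to 0.80, Ttn -6.58 to 1.57, Des -5.43 to 0.63, Eno3 -2.06 to 0.22, Pygm -7.36 to 0.53, Actn2 -6.47 to 1.51. With DESeq2 the reversed values were Acta1 0.13, Ckm 1.08, Myh1 0.68, Tnnt3 1.76, Tnnt1 0.64, Tnnc2 1.40, Mylpf 0.51, Atp2a1 1.68, Mb 0.75, Ttn 0.96, Des 0.61, Eno3 0.20 and Actn2 0.75. With limma-voom and quality weights they were Acta1 1.41, Ckm 0.24, Myh1 2.25, Tnnt3 1.503, Tnnt1 0.21, Tnnc2 0.24, Mylpf 0.33, Atp2a1 0.93, Mb 0.85, Ttn 0.50, Des 0.45, Pygm 0.031 and Actn2 0.64, and with limma-voom Myh1 0.41 and Tnnt3 0.21. With animal number range in the model they were Acta1 0.33, Ckm 0.88, Tnnt3 1.095, Tnnc2 0.83 and Atp2a1 1.11. With replicates 3 and 7 of IgG2a and replicate 6 of anti-PD-1 left out they were Acta1 2.89, Ckm 2.49, Myh1 1.44, Tnnt3 3.08, Tnnt1 0.38, Tnnc2 2.89, Mylpf 0.95, Atp2a1 2.99, Mb 1.12, Ttn 1.83, Des 1.14, Eno3 0.047, Pygm 1.30 and Actn2 1.42. Without IgG2a replicate 3 and anti-PD-1 replicates 4 and 5 they were Acta1 0.11, Myh1 0.45, Tnnt3 0.45, Tnnt1 0.56, Mylpf 0.19, Mb 0.18, Ttn 0.075, Eno3 0.28 and Actn2 0.87. Beyond the change of tumours, counts or weights that defines each setting, the cause was not tested. Depth limited the 9 members that did not pass the filter, and members with under 10 reads in most tumours.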
